A study of Mus musculus with 7 samples.

Results

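The Cd209 lectins and a set of genes that mark resident macrophages were followed in the quadriceps muscle of a mouse model of spinal and bulbar muscular atrophy. The members were Cd209a, Cd209b, Cd209d, Cd209f, Cd209g, Lyve1, Mrc1, Cd163, Folr2 and Timd4. They were taken as every non-control probe named for one of these 10 genes, which gave 11 of the 39429 probes of the array, 2 of them for Cd209a. The genes were chosen on the difference between genotypes in these same arrays. Their differences and calls are therefore given as a description, and no p-value is printed for them. RNA was hybridized to single-dye Agilent arrays, 1 array per mouse. There were 4 WT arrays and 3 AR113Q arrays, from quadriceps of male C57BL/6 mice given as 3 months or 90 days old in the labels. AR113Q mice carry a humanized knock-in allele with an expanded CAG tract at the endogenous locus, so the mutant protein is not restricted to muscle fibers by a muscle promoter. The labels call the controls WT, while the study's text describes a knock-in control line with a repeat of normal length, and which of these the control arrays hold cannot be told from the labels. No source used here states that animals were pooled.

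Cd209 proteins are mouse relatives of human DC-SIGN. They are membrane lectins of macrophages and dendritic cells that bind mannose- and fucose-containing glycans through a calcium-dependent carbohydrate recognition domain. In muscle, resident macrophages lie in the connective tissue around vessels and fibers, where they clear debris and take up circulating molecules. Such cells are commonly recognized by the mannose receptor Mrc1, the hyaluronan receptor Lyve1, the folate receptor Folr2, the phosphatidylserine receptor Timd4 and the hemoglobin-haptoglobin scavenger receptor Cd163.

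The probes of Cd209b and Cd209g are shown because they carry the longest run of bases that any pair of Cd209 probes on the array had in common. Among 36 pairs of 9 Cd209 probes the longest shared run was between 4 and 9 bases. Capitals mark the run of 9 bases that the Cd209b probe on mm9 chr8:3921355-3921414 (minus strand) shares with the Cd209g probe on mm9 chr8:4137318-4137377 (plus strand).
Cd209b: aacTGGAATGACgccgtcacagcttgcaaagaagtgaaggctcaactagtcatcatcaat
Cd209g: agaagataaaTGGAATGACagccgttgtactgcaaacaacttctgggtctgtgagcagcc

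The probes of Cd209f and Cd209d are shown because they were past the thresholds in nearly every way of processing tried, and both read a sequence with the polyadenylation hexamer, marked here in capitals. The Cd209f probe lies on mm9 chr8:4102798-4102857 and the Cd209d probe on mm9 chr8:3871827-3871886, both on the minus strand, and 30 bases of each are given.
Cd209f: tctcagcacccaAATAAAaAATAAAatatt
Cd209d: ctttaggacgctAATAAAacacccattttt

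The order of the protein-coding genes along chromosome 8 in the RefSeq gene table of GRCm38.p6 is Fcer2a, Clec4g, Cd209a, Cd209e, Cd209d, Cd209b, Cd209c, Cd209f and Cd209g, so the 5 Cd209 members lie in 1 cluster with the low-affinity IgE receptor Fcer2a and the liver sinusoid lectin Clec4g at its edge. RefSeq promoters (GRCm38.p6) were found for 9 of the 10 member genes, and there was no entry for Lyve1. Cd209f and Cd209g are adjacent and point in opposite directions. Their 250 bases before the start are shown because they share a long block of sequence. Capitals mark an identical run of 154 bases, which ends 1 base before the start of Cd209f and 15 bases before the start of Cd209g. Among the other 65 pairs of promoters compared, including those of Cd209c and Cd209e, the longest shared run was 12 bases. The Cd209f promoter is GRCm38.p6 chr8:4105765-4106014 on the minus strand, and the Cd209g promoter is chr8:4134486-4134735 on the plus strand.
Cd209f: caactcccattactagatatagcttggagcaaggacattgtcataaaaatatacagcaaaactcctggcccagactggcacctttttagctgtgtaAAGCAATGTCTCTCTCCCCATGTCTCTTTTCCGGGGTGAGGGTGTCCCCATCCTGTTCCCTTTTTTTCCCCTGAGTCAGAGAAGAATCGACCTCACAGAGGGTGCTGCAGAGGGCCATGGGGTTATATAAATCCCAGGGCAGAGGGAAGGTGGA
Cd209g: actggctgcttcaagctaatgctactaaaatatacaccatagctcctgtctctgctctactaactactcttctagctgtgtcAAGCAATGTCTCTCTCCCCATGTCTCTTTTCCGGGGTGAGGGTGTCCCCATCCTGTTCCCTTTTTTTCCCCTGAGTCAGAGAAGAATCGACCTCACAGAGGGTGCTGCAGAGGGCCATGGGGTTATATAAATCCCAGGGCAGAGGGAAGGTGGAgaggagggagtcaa

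A TATA box written TATAAA, searched on both strands, lay in the shared run of both promoters. It was found in 3 of 10 member promoters (Folr2 has 2) and in 12.4% of 32851 promoters of the same length. The PU.1 core GAGGAA, the motif of a myeloid transcription factor, was found in 2 of 10 member promoters and in 23.3% of all promoters. The MAF core TGCTGA was found in 5 of 10 and in 16.1% of all. These matches describe the letters of the window only.

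The median background-subtracted intensity of an array lay between 14.4 and 25.6. Each array had 18782 to 22011 probes (47.6% to 55.8%) that Feature Extraction marked as well above background, and no array had a saturated spot. The fit used the 20990 probes so marked on 3 or more of the 7 arrays, among them all 11 member probes. The Cd209b, Cd209g and Timd4 probes passed this filter through the WT arrays. A probe was called past the thresholds when its limma adjusted p was no more than 0.05 and its log2 difference was at least 1 in size. By this rule 24.8% of all kept probes were past the thresholds, 12.6% lower and 12.2% higher in AR113Q muscle. Groups without overlap were also common, at 49.6% of kept probes, and 24.2% were without overlap and lower in AR113Q. Of the 11 member probes, 7 were past the thresholds and lower (Cd209a by 1 of its 2 probes, Cd209b, Cd209d, Cd209f, Cd209g, Folr2 and Timd4), and 1 was past them and higher (Cd163). In 7 member probes the groups did not overlap, 6 of them lower in AR113Q. The median log2 difference was -2.68 over the member probes and 0.01 over all kept probes. Since the rule used this contrast, nothing is read from these counts. In whole muscle, fewer cells of a type and less RNA per cell cannot be told apart.

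**Figure D1:**
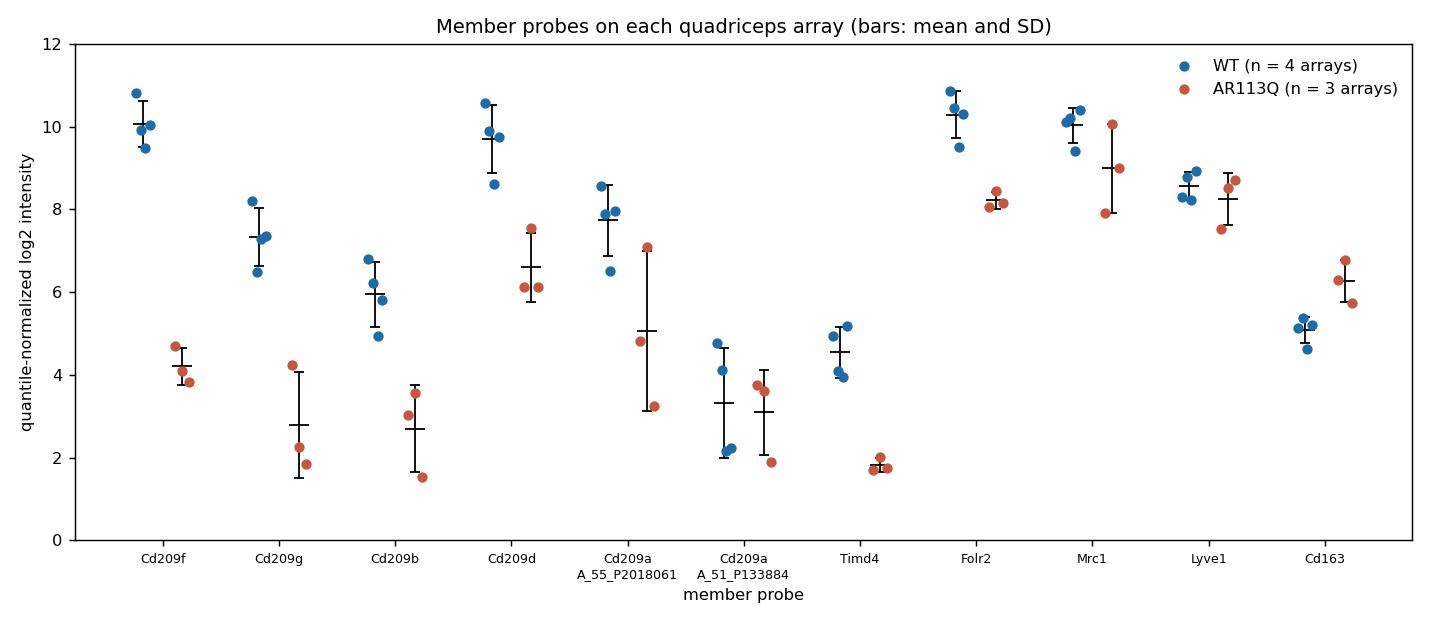
Quantile-normalized log2 intensity (vertical axis) of the 11 member probes (horizontal axis) on each of 4 WT and 3 AR113Q arrays, with the mean and SD as bars. The groups are apart for Cd209f, Cd209g, Cd209b, Cd209d, Timd4, Folr2 and Cd163 and overlap for both Cd209a probes, Mrc1 and Lyve1.

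Cd209f, the member with the greatest decrease, read 10.81, 9.92, 9.48 and 10.05 on the WT arrays and 4.71, 4.11 and 3.83 on the AR113Q arrays, as quantile-normalized log2 intensity. Every WT array was more than 4 log2 units above every AR113Q array. The means were 10.06 ± 0.55 (SD, n = 4) and 4.22 ± 0.45 (SD, n = 3), a log2 difference of -5.85 (SE 0.33), or 57.6-fold. It had the 3rd lowest difference of the 20990 kept probes. Before normalization the background-subtracted intensity was 1150.2, 948, 622 and 910.1 in WT and 22.6, 24.2 and 16.5 in AR113Q, so the gap was present before arrays were scaled to each other. The size of the fold depended on how the background was treated, since the log2 difference was -3.65 with the mean spot signal left unsubtracted and -2.90 in the authors' normalized values.

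Cd209g, which shares the promoter sequence above, read 8.21, 6.50, 7.29 and 7.36 in WT and 4.25, 2.27 and 1.84 in AR113Q. It was well above background on 4 of 4 WT arrays and on 0 of 3 AR113Q arrays, so only a bound can be given. On the background-subtracted scale Cd209g was at least 13.2-fold lower in AR113Q, a bound that does not hold under the other background treatments given below. The measured means were 7.34 ± 0.70 (SD, n = 4) and 2.79 ± 1.29 (SD, n = 3), a log2 difference of -4.55 (SE 0.60). It was -1.34 without background subtraction and -0.82 in the authors' values, where it did not reach the fold threshold.

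Cd209d, whose product is a close relative of Cd209b (SIGN-R1), read 10.57, 9.90, 8.61 and 9.74 in WT and 6.13, 7.56 and 6.12 in AR113Q. The highest AR113Q array lay below the lowest WT array. The means were 9.70 ± 0.81 (SD, n = 4) and 6.60 ± 0.83 (SD, n = 3), a log2 difference of -3.10 (SE 0.50), or 8.58-fold. It was -2.14 without background subtraction and -1.72 in the authors' values.

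Cd209b encodes SIGN-R1, the lectin by which splenic marginal zone macrophages capture bacterial polysaccharides. It read 6.81, 6.22, 4.94 and 5.82 in WT and 3.02, 3.56 and 1.53 in AR113Q. The groups were apart, but only 1 of 3 AR113Q arrays was well above background. The means were 5.95 ± 0.79 (SD, n = 4) and 2.71 ± 1.05 (SD, n = 3), a measured log2 difference of -3.24 (SE 0.55). Without background subtraction the log2 difference was -0.74, under the fold threshold.

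Cd209a is the family member expressed by mouse dendritic cells and monocyte-derived cells. Its probe A_55_P2018061, on mm9 chr8:3743481-3743540, read 8.56, 7.90, 6.52 and 7.97 in WT and 4.83, 7.10 and 3.25 in AR113Q. It was above background on 4 of 4 WT and 2 of 3 AR113Q arrays. The groups overlapped, since AR113Q replicate 2 lay above WT replicate 3. The means were 7.73 ± 0.86 (SD, n = 4) and 5.06 ± 1.93 (SD, n = 3), a log2 difference of -2.68 (SE 0.84). It was not past the thresholds in the authors' values (-0.76), with array weights (-1.74) or without a filter on dim probes. Nor did it pass on leaving out WT replicate 1, 2 or 4 or AR113Q replicate 1 or 3 (-2.62 to -1.77). The other probe, A_51_P133884, has no genome position in the array annotation. It was above background on 2 of 4 WT and 1 of 3 AR113Q arrays, and its log2 difference was -0.23 (SE 0.73). The 2 probes of Cd209a gave different sizes of difference.

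Of the neighbours in the cluster, Cd209c read 5.03, 4.98, 4.47 and 4.96 in WT and 2.43, 3.11 and 2.33 in AR113Q by its brighter probe, with no AR113Q array above background, so the filter kept it through the WT arrays alone. On the background-subtracted scale it was at least 2.35-fold lower (measured log2 difference -2.24, SE 0.24). The difference was only -0.35 without background subtraction and -0.15 in the authors' values, and it did not pass there. Its other probe was above background on 0 of 7 arrays. Cd209e differed by -1.71 (SE 0.86, limma adjusted p = 0.141) and did not pass the test. Clec4g and Fcer2a were each above background on 2 WT arrays and on 0 AR113Q arrays and were not tested. Summed over the 7 cluster genes tested, the normalized linear intensity ranged from 1408 to 4155.1 on the WT arrays and from 108.1 to 378.82 on the AR113Q arrays. All but 2 of these 7 genes are members, which were chosen on this contrast, so nothing is read from the sum.

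Folr2 binds and internalizes folate. Its probe on mm9 chr7:108988771-108988830 read 10.86, 10.46, 9.52 and 10.32 in WT and 8.06, 8.44 and 8.15 in AR113Q. The groups were apart and the AR113Q arrays lay close together. The means were 10.29 ± 0.56 (SD, n = 4) and 8.22 ± 0.20 (SD, n = 3), a log2 difference of -2.07 (SE 0.30), or 4.20-fold. All 7 arrays were well above background, and Folr2 depended little on the background treatment, with a log2 difference of -1.87 unsubtracted and -1.73 in the authors' values.

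Timd4, on mm9 chr11:46657173-46657232, read 4.95, 4.09, 3.95 and 5.18 in WT and 1.70, 2.02 and 1.75 in AR113Q. It was above background on 3 of 4 WT and 0 of 3 AR113Q arrays. On the background-subtracted scale Timd4 was at least 1.90-fold lower in AR113Q. The measured log2 difference was -2.72 (SE 0.32) between means of 4.54 ± 0.61 (SD, n = 4) and 1.83 ± 0.17 (SD, n = 3). Without background subtraction the log2 difference was -0.40 and it was not past the thresholds.

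Mrc1, the mannose receptor, read 10.11, 10.20, 9.43 and 10.41 in WT and 7.92, 10.06 and 9.01 in AR113Q by its probe on mm9 chr2:14253273-14253332. AR113Q replicate 2 was within the WT range and the other 2 were below it. The log2 difference was -1.04 (SE 0.47), and the spread between AR113Q arrays was 1.07 (SD, n = 3), and it was not past the thresholds. Without AR113Q replicate 2 it passed them (-1.58), while the difference was -0.51 without AR113Q replicate 1 and -0.54 with array weights.

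Lyve1, which lymphatic endothelium also expresses, read 8.31, 8.77, 8.24 and 8.93 in WT and 7.53, 8.51 and 8.71 in AR113Q by its probe on mm9 chr7:117994171-117994230. Of the 3 AR113Q arrays, 2 were within the WT range. The log2 difference was -0.31 (SE 0.31), and without AR113Q replicate 1 it was 0.05.

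Cd163 was the 1 member probe that was higher. Its probe on mm9 chr6:124270436-124270495 read 5.14, 5.38, 4.64 and 5.21 in WT and 6.29, 6.78 and 5.75 in AR113Q. Every AR113Q array was above every WT array, and all 7 were above background. The means were 5.09 ± 0.32 (SD, n = 4) and 6.27 ± 0.51 (SD, n = 3), a log2 difference of 1.18 (SE 0.28). It fell below the fold threshold with 75th percentile scaling (0.97), normexp background correction (0.49), no background subtraction (0.48) and without AR113Q replicate 2.

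Within a genotype the order of the arrays was alike for many members. WT replicate 3 was the lowest WT array in 10 of 11 member probes, and WT replicate 1 the highest in 7. AR113Q replicate 2 was the highest AR113Q array in 7 of 11 and the lowest in 0. WT replicate 2 and AR113Q replicate 1 were on the same slide, the 1 slide of 5 with both genotypes. On that slide the log2 difference was -5.21 for Cd209f, -3.77 for Cd209d, -3.20 for Cd209b, -2.25 for Cd209g, -2.40 for Folr2, -2.39 for Timd4, -2.29 for Mrc1, -1.24 for Lyve1 and 0.91 for Cd163. For Cd209a it was -3.07 by A_55_P2018061 and -0.35 by A_51_P133884. This is a single pair of arrays. With slide as a random block over all 7 arrays, 8 of 11 member probes and 5209 probes in all were past the thresholds.

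**Figure D2:**
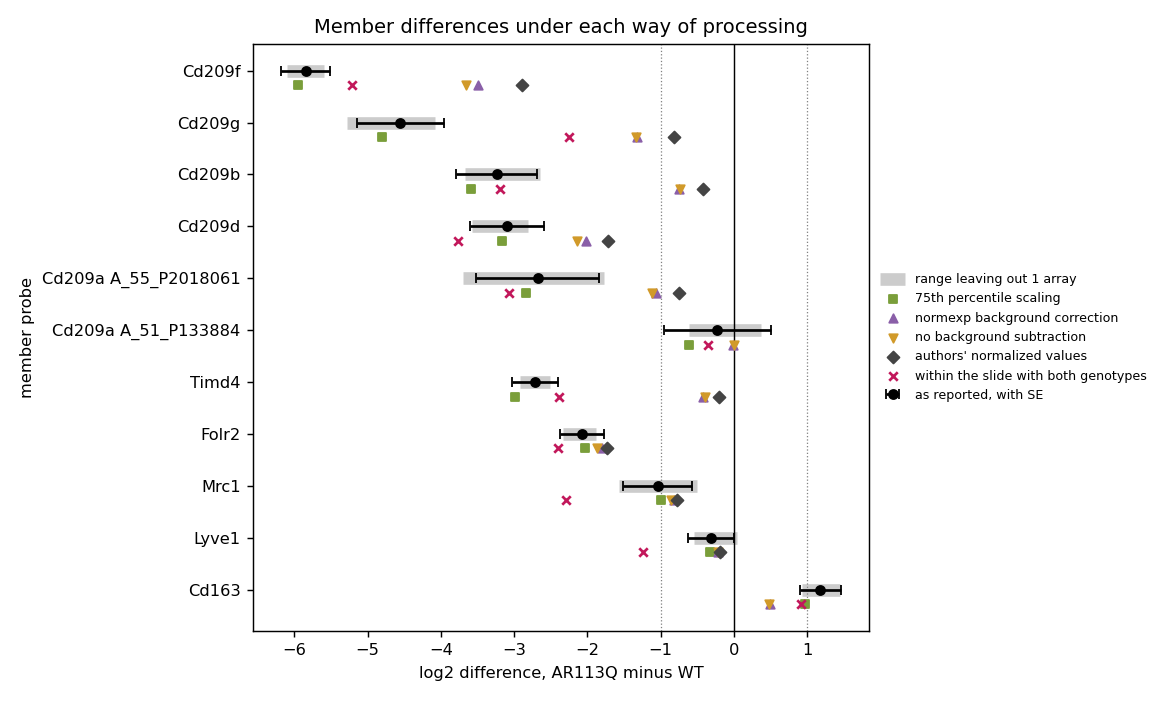
Log2 difference of AR113Q minus WT (horizontal axis) for each member probe (vertical axis). Black points with bars are the reported difference and its SE, grey bands the range on leaving out 1 array, and coloured marks other ways of processing, with dotted lines at the fold threshold. Cd209f lies between -6.09 and -2.90 and Folr2 between -2.40 and -1.73, while the dim probes Timd4, Cd209b and Cd209g come to -0.20, -0.42 and -0.82 in the authors' values.

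Cd209f, Cd209d and Folr2 were past the thresholds and lower in each alternative except the one that fitted slide as a fixed effect. That fit contrasts only WT replicate 2 and AR113Q replicate 1, the pair on 1 slide, so it cannot decide which probes pass. The number of member probes past the thresholds was 5 of 11 with normexp and with no background subtraction, beside 9.89% and 10.8% of all kept probes. It was 3 of 9 in the authors' normalized values, beside 8.56% of all probes in that table, and 4 of 6 among probes well above background on all 7 arrays, beside 21.9%. The authors' table did not list Cd163 or the second Cd209a probe.

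Other listed genes of resident muscle macrophages were mostly lower. The gene lists, too, were written with earlier results of these data known, so their counts are given as a description. For gene lists, each gene was represented by its brightest kept probe, and 13.1% of 16549 genes tested were past the thresholds and lower and 11.2% higher. Of 27 resident macrophage genes tested, 14 fell and 1 rose, with a median log2 difference of -1.02, beside -0.01 over all genes. Fcrls, an Fc receptor-like scavenger protein, fell by 4.39 on the log2 scale (SE 0.54, limma adjusted p = 0.000617). The eosinophil-attracting chemokine Ccl24 read 9.48, 9.14, 8.42 and 8.78 in WT and 5.09, 5.06 and 4.31 in AR113Q, and fell by 4.13 (SE 0.30, limma adjusted p = 0.000102). Retnla, induced by type 2 cytokines, fell by 2.90 (SE 0.54, limma adjusted p = 0.00356). The endothelin receptor Ednrb rose by 1.20 (SE 0.30, limma adjusted p = 0.0123). In the authors' normalized values 8 of 26 genes tested fell and 0 rose. There Fcrls, above background on 1 of 3 AR113Q arrays, was at -1.03, Ccl24 at -1.84 and Ednrb, no longer past the thresholds, at 0.77.

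Markers of macrophages in general also had mostly negative differences, in 20 of 26, beside 21 of 27 in the resident list. These lists were not tested against each other. Of 26 tested, 9 fell and 1 rose, with a median of -0.61. The calcium-binding protein Aif1 (IBA1) fell by 3.77 (SE 0.31, limma adjusted p = 0.000135), and Adgre1 (F4/80) fell by 1.94 (SE 0.30, limma adjusted p = 0.00152). Cx3cr1, the fractalkine receptor, was kept through the WT arrays alone, with no AR113Q array above background. On the background-subtracted scale it was at least 2.12-fold lower. Its difference was -0.25 without background subtraction and -0.14 in the authors' values, where it did not pass. Cd14, a lipopolysaccharide co-receptor, rose by 1.42 (SE 0.22, limma adjusted p = 0.00146). Of further markers of the lineage, named here after their values were seen, Csf1r fell by 1.15 (SE 0.27, limma adjusted p = 0.00941) and Lyz2 fell by 1.30 (SE 0.35, limma adjusted p = 0.0173), while Cd68 differed by -0.11 (SE 0.29, limma adjusted p = 0.789) and Itgam by 0.23 (SE 0.27, limma adjusted p = 0.508). The list's summed linear intensity was 14764 to 24698 in WT and 12319 to 17845 in AR113Q, so the groups overlapped in this sum. For the resident macrophage list it was 51058 to 74963 and 30530 to 42603, without overlap. The brightest genes weigh most in such sums, and 49.6% of all kept probes had groups without overlap. In the authors' values 3 general macrophage genes fell and 1 rose, with Aif1 at -1.20 and Adgre1, no longer past the thresholds, at -0.73.

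Genes of recruited monocytes and macrophages went both ways. Of 15 tested, 5 rose and 3 fell, with a median of 1.11. The chitinase-like protein Chil3 read 3.69, 4.54, 3.32 and 5.43 in WT and 7.95, 7.49 and 7.16 in AR113Q, and rose by 3.29 (SE 0.48, limma adjusted p = 0.00124). Gpnmb, a glycoprotein of phagocytes in damaged tissue, rose by 2.90 (SE 0.31, limma adjusted p = 0.000381). Il6 was kept through the AR113Q arrays alone, with no WT array above background. On the background-subtracted scale it was at least 2.50-fold higher in AR113Q. Its difference was 0.33 without background subtraction, where it did not pass. The 3 that were lower were fibronectin Fn1, which fell by 1.96 (SE 0.52, limma adjusted p = 0.0171), the proteoglycan Vcan, which fell by 1.66 (SE 0.48, limma adjusted p = 0.0244) and Nos2, which fell by 1.62 (SE 0.30, limma adjusted p = 0.00325). AR113Q replicate 1 was the lowest array for Fn1, at 9.12 beside 11.39 and 11.28 on the other AR113Q arrays. The same held for Vcan, at 4.12 beside 6.20 and 5.82. Fibroblasts also express Fn1 and Vcan, and the cell source of the genes that rose was not tested either. WT replicate 4 stood apart in this list: S100a8, a neutrophil and monocyte alarmin named for this reason, read 10.21 on that array and 4.33 to 5.02 on the other WT arrays. Without it 8 genes of the list rose and 2 fell, and S100a8, S100a9 and Plac8 then passed the thresholds. Chil3 was above background on 2 of 4 WT arrays, and its difference was 1.37 without background subtraction. Chil3 and Il6 were not among the 12 genes tested in the authors' values, where 2 rose and 1 fell, Gpnmb was at 1.44, Thbs1 was at 0.70, and neither Vcan (-0.34) nor Nos2 (-0.46) passed.

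Of 13 other C-type lectin receptors of myeloid cells that were tested, 6 fell and 1 rose, with a median of -0.99. Clec4b1 fell by 3.27 (SE 0.55, limma adjusted p = 0.0022), Clec4a3 fell by 2.10 (SE 0.44, limma adjusted p = 0.00586) and Clec2d fell by 1.42 (SE 0.38, limma adjusted p = 0.0169). Clec4b1 and Clec4a3 were each above background on 4 of 4 WT and 1 of 3 AR113Q arrays, and without background subtraction their log2 differences were -0.94 and -0.58. Clec4d, an activating receptor for mycobacterial glycolipid, rose by 3.69 (SE 0.63, limma adjusted p = 0.00239), and its difference was 1.36 in the authors' values. In the authors' values, with 12 of the list tested, 1 gene rose and 0 fell below the fold threshold, where Clec4b1 was at -0.55, Clec4a3 at -0.31 and Clec2d at -0.83. The counts were the same with normexp, where Clec2d was at -0.99. Of 15 genes of dendritic cells and antigen presentation, 8 fell and 0 rose (1 was higher at an unadjusted limma p under 0.05), with a median of -1.24. They included the peptide-loading subunits H2-DMb1, which fell by 2.22 (SE 0.39, limma adjusted p = 0.0026), and H2-DMa, which fell by 1.97 (SE 0.34, limma adjusted p = 0.00273), and the integrin Itgax, which fell by 2.18 (SE 0.48, limma adjusted p = 0.00754) but was above background on only 2 of 4 WT and 1 of 3 AR113Q arrays. In the authors' values 3 of 14 tested fell and H2-DMa (-0.70) did not pass, and without background subtraction Itgax was at -0.24.

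**Figure D3:**
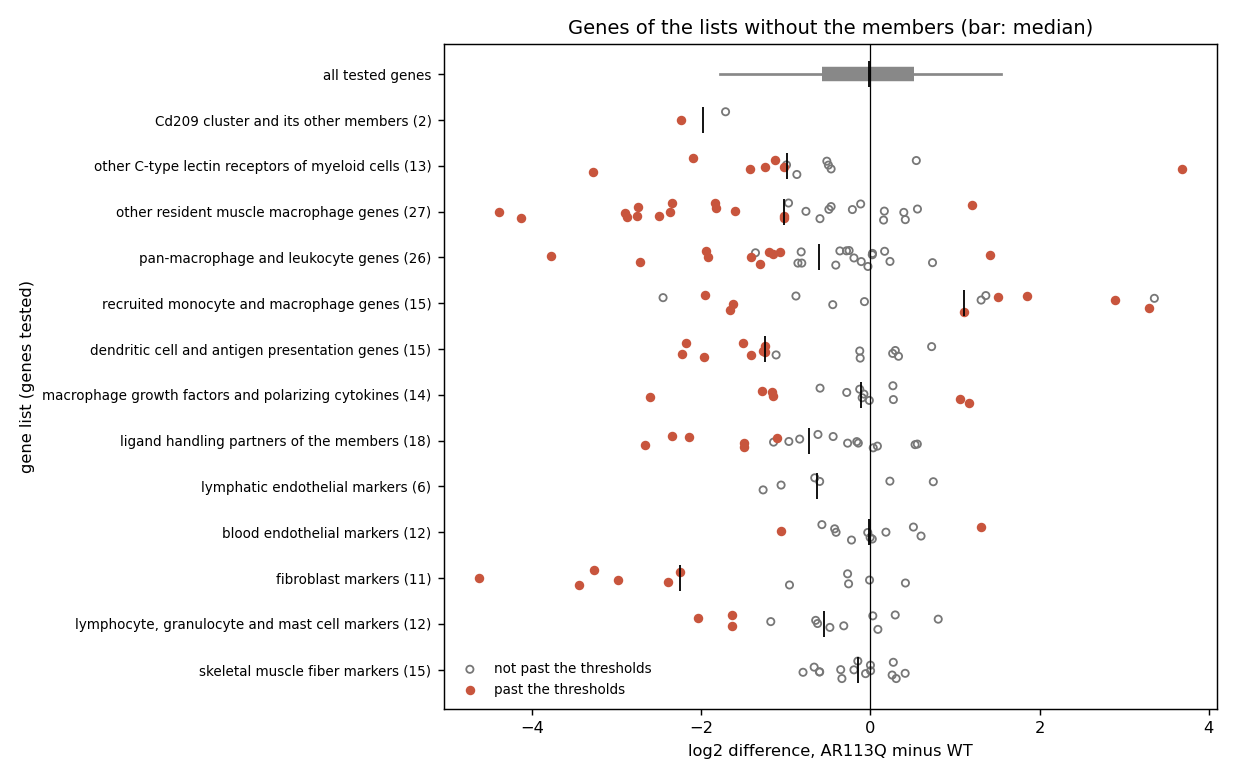
Log2 difference of AR113Q minus WT (horizontal axis) for the tested genes of each list without the members (vertical axis, number tested in brackets), filled where past the thresholds, with the median as a bar. The top row gives all 16549 genes, with a thick bar from the 25th to the 75th percentile (-0.57 to 0.52) and a thin line from the 5th to the 95th (-1.77 to 1.55). Fibroblast markers have the lowest median of the cell type marker lists, at -2.25, and muscle fiber markers a median of -0.15.

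Genes that handle the ligands of the members were lower or not past the thresholds. Of 18 tested, 6 fell and 0 rose (9 lower and 0 higher at an unadjusted limma p under 0.05), with a median of -0.73. Slc46a1, a proton-coupled folate transporter, fell by 2.66 (SE 0.32, limma adjusted p = 0.000591). The hyaluronan receptor Cd44 fell by 2.35 (SE 0.32, limma adjusted p = 0.000923). The hyaluronan synthase Has2 was kept through the WT arrays alone, with no AR113Q array above background. On the background-subtracted scale Has2 was at least 2.07-fold lower. The difference of Has2 was -0.30 without background subtraction and -0.16 in the authors' values, where it did not pass. In the authors' values 2 of the list fell, and neither Slc46a1 (-0.88) nor Cd44 (-0.63) passed. Those that fell there, named here after their values were seen, were Icam2 (-1.36) and Anxa5 (-1.08). Of 14 growth factor and polarizing cytokine genes, 4 fell and 2 rose, with a median of -0.11. Il33, an alarmin of stromal cells, fell by 2.61 (SE 0.34, limma adjusted p = 0.000813). The CSF1 receptor ligands Csf1 and Il34 fell by 1.29 (SE 0.22, limma adjusted p = 0.00248) and 1.17 (SE 0.18, limma adjusted p = 0.00174). The receptor subunits Il13ra1 and Il4ra rose by 1.17 (SE 0.34, limma adjusted p = 0.0253) and 1.06 (SE 0.34, limma adjusted p = 0.036). Il13ra1 was above background on 2 of 4 WT and 2 of 3 AR113Q arrays and was at 0.23 without background subtraction. It was not among the 13 genes tested in the authors' values, where 1 fell and 0 rose, with Il4ra at 0.56, Il33 at -0.55, Csf1 at -0.73 and Il34 at -0.74.

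Markers of other cell types were measured beside the members. Of 11 fibroblast markers 6 fell and 0 rose (7 lower and 1 higher at an unadjusted limma p under 0.05), with a median of -2.25, and the same counts were found in the authors' values. The collagen Col3a1 fell by 4.62 (SE 0.33, limma adjusted p = 0.0001), Thy1 fell by 3.44 (SE 0.23, limma adjusted p = 8.07e-05) and the collagen Col1a1 fell by 3.27 (SE 0.54, limma adjusted p = 0.00218). Among those that did not pass, named here after their values were seen, Pdgfra differed by -0.27 (SE 0.26), Ly6a by -0.26 (SE 0.28), Tcf7l2 by -0.01 (SE 0.25) and the proteoglycan Dcn by 0.41 (SE 0.16). The summed linear intensity of the list was 119900 to 149220 in WT and 80774 to 116130 in AR113Q. Of 6 lymphatic endothelial markers 0 were past the thresholds in the limma fit (2 lower and 1 higher at an unadjusted p under 0.05). Their median was -0.63, and 1 fell with 75th percentile scaling. The brightest of them, Pdpn, differed by -0.60 (SE 0.32, limma adjusted p = 0.161), and 3 others on the array were never above background. Of 12 blood endothelial markers Vwf fell by 1.05 (SE 0.25, limma adjusted p = 0.00959) and the tight junction gene Cldn5 rose by 1.30 (SE 0.37, limma adjusted p = 0.021), with a median of -0.02. Vwf was at -0.99 in the authors' values, just short of the fold threshold, and was not past the thresholds with 75th percentile scaling either. Of 12 lymphocyte, granulocyte and mast cell markers 3 fell, with a median of -0.55. They included the mast cell proteases Cma1, which fell by 2.04 (SE 0.59, limma adjusted p = 0.0232), and Mcpt4, which fell by 1.64 (SE 0.55, limma adjusted p = 0.0402). AR113Q replicate 1 was the lowest array for Cma1 (3.50) and Mcpt4 (7.12). In the authors' values 1 of the list fell and Cma1 (-0.52) did not pass. Over the other ways of processing that kept the fold threshold, slide as a fixed effect left out, the number that fell ranged from 0 to 4. Of the other mast cell markers, named here after their values were seen, Cpa3 differed by -0.48 (SE 0.43), Tpsb2 by -0.62 (SE 0.45) and Kit by 0.29 (SE 0.41), and none passed. The part of these cell types in the members' differences was not tested.

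The labelled tissue was borne out by the muscle fiber markers, the brightest of which over the 7 arrays, the fast troponin Tnni2, had a mean log2 intensity of 17.54 in WT and 17.81 in AR113Q. Of 15 fiber markers 0 were past the thresholds in the limma fit with quantile normalization (3 lower and 0 higher at an unadjusted p under 0.05), with a median of -0.15, and 3 fell with 75th percentile scaling. The slow fiber myosin Myh7 varied widely within both genotypes, from 4.95 to 12.56 in WT and from 6.22 to 13.59 in AR113Q, and was highest in WT replicates 2 and 3 and AR113Q replicate 3. Its part in the members' values was not tested.

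The genes whose pattern over the 7 arrays was most like that of Cd209f were Asb4 (Pearson r = 0.9993), Styx (0.9991), Timm17b (0.9983), Ptges (0.9974) and Rarres2 (0.997), which encodes the chemoattractant chemerin. Their log2 differences were -1.32, -1.82, -0.59, -1.99 and -0.93. These correlations are a description over 7 arrays that fall into 2 genotypes.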

How the data were processed

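Quadriceps RNA from 4 WT and 3 AR113Q mice was measured on single-dye Agilent arrays, and genotypes were taken from the sample labels. The authors extracted spots with Agilent Feature Extraction 10.7.3.1, and the deposited scanner files give each spot's intensity after background subtraction, with no scaling across arrays. A second deposited table, from the authors, gives log2 values, quantile normalized according to the methods. Its column medians were 8.92 to 8.93, it correlated with the unsubtracted mean signal at 0.992 to 0.999, and it held 18592 rows that matched a probe.

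Control and outlier spots were left out (94 to 151 outlier spots per array), log2 of the processed signal was quantile normalized over 43020 spots, and spots of a probe were averaged. A probe was kept when well above background on 3 or more of 7 arrays (20990 probes, 16549 genes). AR113Q and WT were contrasted by the lmFit and eBayes functions of limma 3.58.1 (R 4.3.3), p-values were adjusted over all kept probes by Benjamini-Hochberg, and the procedure was checked on simulated data. A bound on a fold sets each array's dim value at the lowest signal among its probes well above background. It holds for background-subtracted signals only. The number of arrays limits the precision, and subtracting the background widens log2 differences of dim spots. P-values measure the spread between arrays of a genotype, which holds differences between mice and between slides.

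Symbols were taken through RefSeq accessions (28330 probes) or, failing that, from the scanner output. Positions of probes come from Agilent's annotation, which uses mm9. Cross-hybridization between Cd209 paralogs was not checked against transcripts. The genes named were all member probes, the neighbours in the cluster, the 3 greatest increases and decreases past the thresholds in each list or the brightest gene where none passed, and the 5 genes most like Cd209f. Some genes that this rule names are not reported here. The members and lists were chosen with earlier results of these data known. The replicate numbers did not pair the arrays, since the correlation of same-numbered deviations was 0.04, -0.02 and 0.16.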

Additional observations from a re-analysis of the deposited data

How the results depend on the processing

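The count of member probes past the thresholds was 8 of 11 as reported and 7 to 8 on leaving out each array in turn, where Cd209a (A_55_P2018061) was lost without WT replicates 1, 2 or 4 or AR113Q replicates 1 or 3, and Cd163 was lost and Mrc1 gained without AR113Q replicate 2. It was 5 of 11 with normexp background correction and 5 of 11 without background subtraction. In the authors' normalized values it was 3 of 9, and with the filter on all 7 arrays 4 of 6, since fewer probes were tested. With slide as a fixed effect the contrast rests on 1 array of each genotype, so calls are not counted. Over all kept probes 5207 were past the thresholds, and 4453 to 5562 on leaving out 1 array, 2075 with normexp, 2264 without background subtraction, 1592 in the authors' values, 0 with slide as a fixed effect, and 9198 without the fold threshold. With 75th percentile scaling there were 5313, 2983 lower and 2330 higher. With the replicate number as a block 8 of 11 member probes and 5189 probes in all passed, and the block changed no member call. Summed over the lists, members and genes in more than 1 list included, there were 66 lower and 11 higher calls as reported (59 and 11 distinct genes without the members), beside 27 and 5 calls in the authors' values.

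The second Cd209a probe changed sign without background subtraction (0.0036) and without WT replicate 1 (0.25), WT replicate 2 (0.04) or AR113Q replicate 3 (0.37), and on leaving out 1 array this probe ranged from -0.61 to 0.37. Lyve1 changed sign without AR113Q replicate 1 (0.0479), ranged from -0.54 to 0.05 on leaving out 1 array, and was -1.24 with slide as a fixed effect. Timd4 was -0.42 with normexp, Cd209b -0.75, Cd209g -1.32, Cd209a (A_55_P2018061) -1.06, Cd209d -2.02 and Cd209f -3.49. For signals near background the treatment of the background sets the size of the difference, as the offset and the unsubtracted background are added to both genotypes. Without background subtraction Cd209c (-0.35), Cx3cr1 (-0.25), Has2 (-0.30) and Il6 (0.33) did not pass either. Other causes were not tested.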
